A study of Mus musculus with 17 samples.

Results

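The expression of 7 genes of cholesterol synthesis and its control was followed in mouse embryonic stem cells, in the rows named *Hmgcs1*, *Sqle*, *Fdft1*, *Lss*, *Cyp51*, *Dhcr7* and *Insig1* among 54532 genes in the deposited RNA-seq table. The cells were of the R1 line, a mouse embryonic stem cell line, either wild-type (WT) or carrying a CRISPR/Cas9 knockout of *Usb1* (KO), the gene of an enzyme that trims the 3′ end of U6 snRNA. All were profiled in a retinoic acid (RA) differentiation series, without RA at day 0 and after RA for 1 day and for 3 days. There were 2 libraries of WT cells at day 0 and 3 libraries in each of the other 5 groups (KO day 0, WT day 1, KO day 1, WT day 3, KO day 3), 17 in all. The KO cells came from 1 edited line, so an effect of *Usb1* loss cannot be told apart from other features of that line, and its mutant mRNA is still made but would encode a truncated protein. The comparison asks how the cells respond to RA with and without *Usb1*. Levels are given in TPM, a transcript abundance that is scaled for gene length and library depth.

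Cholesterol is built from acetyl-CoA through mevalonate and squalene, and the cell meets its need by synthesis or by taking up lipoprotein. Transcription of the enzymes is driven by SREBP2, a membrane-bound transcription factor. When sterols are plentiful, INSIG proteins hold SREBP2 and its escort SCAP in the endoplasmic reticulum, and when sterols fall the factor is carried to the Golgi, cleaved and released to the nucleus. Of the 7 genes, *Hmgcs1* encodes the cytosolic synthase that makes HMG-CoA, the substrate for mevalonate. *Fdft1* encodes squalene synthase, *Sqle* the epoxidase that oxidizes squalene, and *Lss* the cyclase that closes the sterol rings into lanosterol. *Cyp51* encodes lanosterol demethylase and *Dhcr7* the reductase that yields cholesterol in its last steps, while *Insig1* encodes the retention protein and is itself a target of SREBP2.

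RefSeq promoter windows (GRCm38.p6, 250 bases before and 50 after an annotated start) were at hand for 5 of the 7 genes. The windows were searched on both strands for TCACCCCAC and TCACCTCAG, which are forms of the sterol regulatory element that SREBP binds, and for CCAAT (the NF-Y box), GGGCGG (the GC box) and CACGTG (the E-box). These motifs were chosen after the sequences had been seen, and a match is a description of letters. *Hmgcs1* held TCACCCCAC, whose match lies 137 bases before its RefSeq start, and *Cyp51* held TCACCTCAG, whose match lies 88 bases before. Over all 32851 RefSeq windows these letters were found in 0.551% and 0.381%. *Insig1* held CACGTG, whose match lies 101 bases before its start and which is found in 7.15% of windows, and neither form of the sterol element. A window of *Dhcr7* also held CACGTG, 164 bases before its start, and *Lss* and *Dhcr7* held neither form. CCAAT is found in 37.4% of all windows and GGGCGG in 35.7%. The 3 stretches below are those of the gene that differed most between genotypes at day 3 (*Hmgcs1*, chr13:119690101-119690350, plus strand), of the gene that differed at day 1 and at day 3 (*Cyp51*, chr5:4104747-4104947, minus strand) and of the regulator (*Insig1*, chr5:28071162-28071362, plus strand). They end before both the RefSeq and the GENCODE start, capitals mark every match to the 5 motifs on either strand, and no match shares a base with another.
Hmgcs1: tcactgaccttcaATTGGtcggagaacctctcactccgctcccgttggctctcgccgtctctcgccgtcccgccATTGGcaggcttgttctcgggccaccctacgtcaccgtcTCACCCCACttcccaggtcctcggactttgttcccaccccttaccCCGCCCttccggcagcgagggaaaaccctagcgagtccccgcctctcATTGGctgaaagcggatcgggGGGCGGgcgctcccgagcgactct
Cyp51: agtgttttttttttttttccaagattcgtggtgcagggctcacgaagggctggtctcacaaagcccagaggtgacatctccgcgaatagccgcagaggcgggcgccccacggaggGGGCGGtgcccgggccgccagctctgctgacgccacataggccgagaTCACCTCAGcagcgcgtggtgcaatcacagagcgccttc
Insig1: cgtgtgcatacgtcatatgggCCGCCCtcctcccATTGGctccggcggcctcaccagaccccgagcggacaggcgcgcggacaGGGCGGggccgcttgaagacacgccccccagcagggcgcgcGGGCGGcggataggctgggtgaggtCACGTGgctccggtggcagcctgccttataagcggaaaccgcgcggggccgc

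The libraries held 15404379 to 17300186 reads on genes, recovered from the TPM steps, and each of the 7 genes had 336 to 3450 of them, so their levels were well measured in every library. WT day 0 replicate 1 stood apart, with 239 genes at a single read against 1224 to 2467 in the others. *Usb1* averaged 38.5, 52.5 and 33.8 TPM in WT at days 0, 1 and 3 and 16.2, 20.2 and 17.4 TPM in KO, with every KO library below every WT library of its day. Markers of pluripotent cells were abundant at day 0 in both genotypes (6 markers, summed level 4927 to 5394 TPM), and by day 3 all 6 had fallen in each. At day 3 they summed to 312–353 TPM in WT and 510–578 TPM in KO, and by the test 5 of 6 were higher and 1 was lower in KO. Primitive and visceral endoderm markers summed to 553–601 TPM in WT and 280–321 TPM in KO at day 3, with 6 of 7 lower in KO by the test. The other endoderm marker did not pass, but each of its KO libraries lay above every WT library. Fibroblast markers summed to 30.0–37.8 TPM in WT and 57.0–66.2 TPM in KO at day 3 (4 of 4 tested higher in KO), and neural progenitor markers to 102–112 and 135–158 TPM (2 of 5 higher and none lower). Beside these marker counts, 3.96% of all genes were higher and 3.56% lower in KO by the test at day 3. In bulk RNA fewer cells of a type and less RNA per cell cannot be told apart, and the part of these shifts in the differences described next was not tested.

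All 7 genes were expressed in all 17 libraries, at 11.6 to 159.8 TPM. In each of the 17 libraries *Hmgcs1* had the highest and *Lss* the lowest level of the 7. *Lss* has the longest annotated exon set (10787 bases in GENCODE M21 against 3093 to 5817 for the other 6), which enters its TPM as a divisor. The range between the lowest and the highest library was narrow, from 1.58-fold for *Fdft1* to 2.47-fold for *Insig1*. The highest group mean was KO day 3 for *Hmgcs1*, *Fdft1*, *Sqle* and *Cyp51*, and KO day 0 for *Lss*, *Dhcr7* and *Insig1*. Summed over the 7 genes, the level was 338–370 TPM in WT day 0, 296–316 in WT day 1 and 322–334 in WT day 3. In KO the sum was 379–426 TPM at day 0, 310–323 at day 1 and 444–467 at day 3, so the KO day 3 libraries stood above all others.

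**Figure D1:**
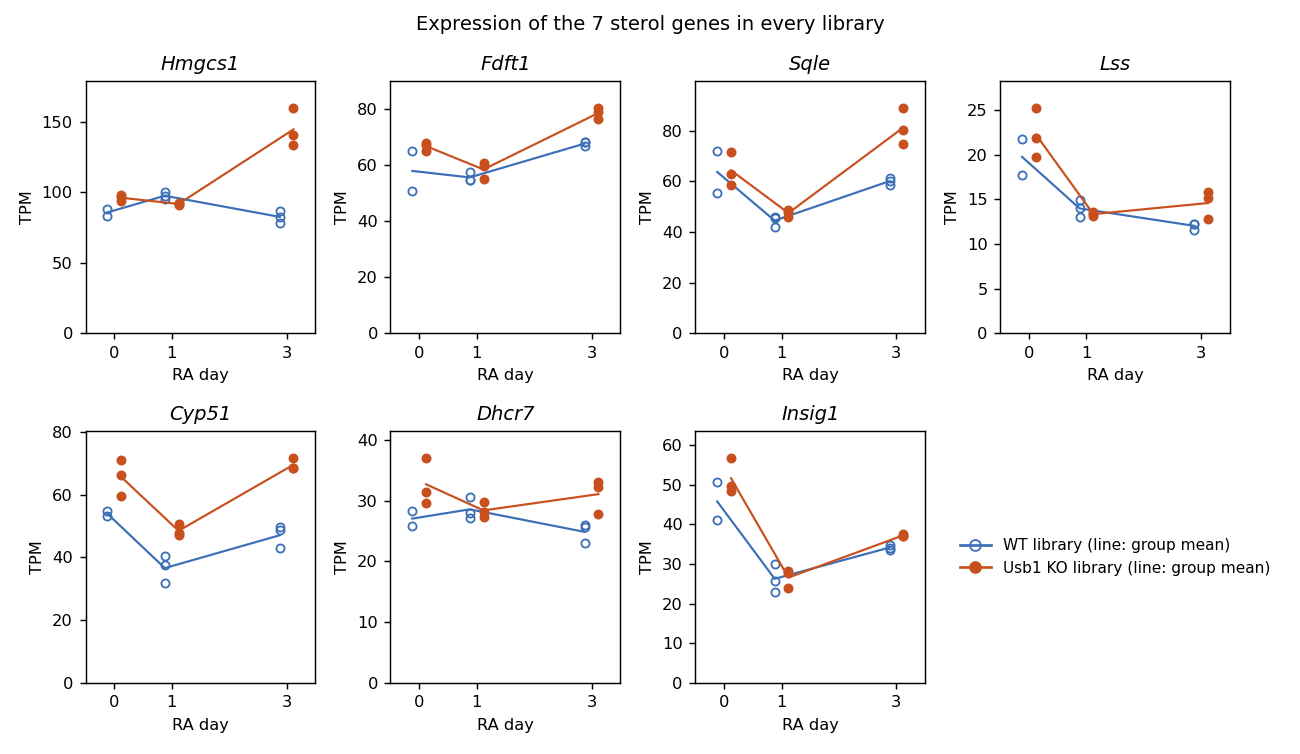
TPM of the 7 genes (vertical axes, each from 0) against RA day (horizontal axes, days to scale) in every library, with WT as open blue circles, KO as filled orange circles and lines through the group means. *Hmgcs1* lies between 78.3 and 100.2 TPM in WT and stands at 133.3 to 159.8 TPM in KO at day 3, while *Insig1* drops at day 1 in both genotypes.

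At day 3 of RA the cholesterol genes were higher in KO than in WT cells. Each of the 7 had every KO library above every WT library, where 11.0% of the 21871 genes tested were placed so. *Hmgcs1*, *Cyp51* and *Sqle* passed the test (limma on log2(TPM + 1), adjusted p under 0.05), 3 of 7 against 3.96% of all genes higher in KO. The median difference of the 7 was 0.31 on the log2 scale, beside 0.00 over all genes tested. None of the 7 was called at 2-fold, as 0.521% of all genes were in this direction, although 6 had an unadjusted p under 0.05. The 7 genes were chosen with earlier results of these data known, so these counts describe them and are no test of the group.

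*Hmgcs1*, whose product HMG-CoA feeds mevalonate synthesis, carried the largest difference of the 7. It stood at 78.3, 86.8 and 82.4 TPM in the WT day 3 libraries and at 140.8, 133.3 and 159.8 TPM in the KO day 3 libraries. No other group reached that level, since the other 4 groups lay between 83.3 and 100.2 TPM. The difference was 0.80 on the log2 scale (SE 0.06, limma adjusted p = 2.41e-06), which is 1.74-fold. WT day 3 was the lowest of the 6 groups for this gene, and overlapped with WT day 0.

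*Cyp51* was the only one of the 7 to pass at day 1 as well as at day 3. In WT it was at 49.6, 48.7 and 43.0 TPM at day 3, and in KO at 68.5, 71.8 and 68.4 TPM. The KO libraries differed little among themselves and the gap to WT was wider than the spread of either group. The log2 difference was 0.56 (SE 0.09, limma adjusted p = 9.89e-04). At day 1 the WT libraries held 40.4, 37.5 and 32.0 TPM and the KO libraries 50.8, 47.0 and 47.7 TPM, a log2 difference of 0.40 (SE 0.09, adjusted p = 0.00541).

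The squalene steps differed less. *Sqle*, which adds the first oxygen to squalene, was at 61.5, 60.2 and 58.6 TPM in WT and 80.2, 89.0 and 74.7 TPM in KO at day 3. Its log2 difference of 0.43 (SE 0.09) passed the test with limma adjusted p = 0.0118, and with the 6 day 3 libraries fitted alone the adjusted p was 0.053. *Fdft1*, one step earlier, was at 68.3, 68.2 and 66.8 TPM in WT and 76.7, 80.5 and 78.9 TPM in KO. These 2 groups were tight and apart, yet the log2 difference of 0.21 (SE 0.07) did not pass (limma adjusted p = 0.0917). *Lss* was at 11.6, 12.3 and 12.2 TPM in WT and 12.8, 15.2 and 15.8 TPM in KO, with KO replicate 1 close to the WT libraries and a log2 difference of 0.25 (adjusted p = 0.196).

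*Dhcr7* and *Insig1* also lay apart at day 3 without passing. *Dhcr7* was at 25.9, 23.0 and 25.6 TPM in WT and 27.9, 33.1 and 32.2 TPM in KO, with the lowest KO library close to the highest WT library. Its log2 difference was 0.31 (limma adjusted p = 0.0565). Without KO day 3 replicate 1, a library with 1224 genes at a single read, it was 0.38 (adjusted p = 0.0300). With the day 3 libraries fitted alone the adjusted p was 0.161. Over all fits the log2 difference of *Dhcr7* ran from 0.26 to 0.38 and its adjusted p from 0.0120 to 0.198. *Insig1* showed the smallest difference of the 7. It was at 34.0, 34.9 and 33.6 TPM in WT and 37.2, 37.5 and 37.1 TPM in KO, 3 nearly equal values in each group. The log2 difference was 0.12 with a 95% interval of −0.09 to 0.34 (limma adjusted p = 0.604), so the fitted interval, whose spread is shared across the 6 groups, covered no difference.

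**Figure D2:**
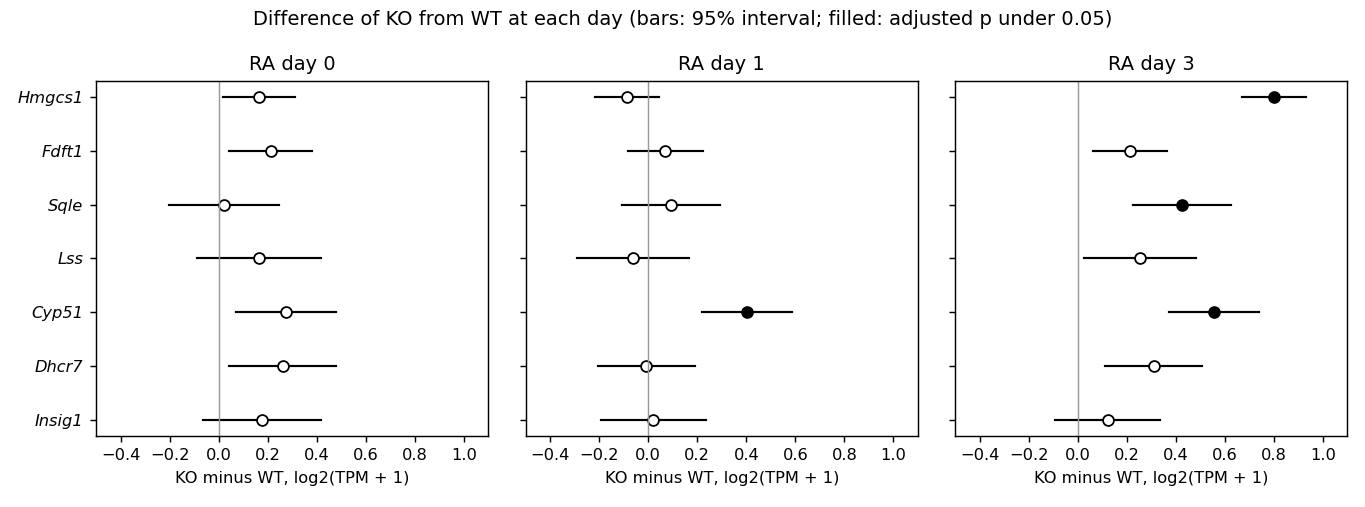
Difference of KO from WT in log2(TPM + 1) for the 7 genes at RA days 0, 1 and 3, with 95% intervals from limma; filled points had an adjusted p under 0.05. *Cyp51* is filled at days 1 and 3, *Hmgcs1* and *Sqle* at day 3, and no gene at day 0.

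At day 0, before RA, none of the 7 passed the test by limma, where 11.9% of all genes did in either direction, while 4 had an unadjusted p under 0.05 and 3 passed by voom on the recovered reads. All 7 means were higher in KO, with log2 differences of 0.02 (*Sqle*) to 0.28 (*Cyp51*) and a median of 0.17 beside 0.00 over all genes. The groups lay apart for *Hmgcs1*, *Fdft1*, *Cyp51* and *Dhcr7*, each higher in KO, as for 15.3% of all genes. *Cyp51* was at 53.2 and 54.8 TPM in WT and 71.0, 66.4 and 59.7 TPM in KO. *Dhcr7* was at 28.2 and 25.8 TPM in WT and 37.1, 29.7 and 31.3 TPM in KO. The WT pair was wide for other members, with *Sqle* at 71.9 and 55.6 TPM and *Fdft1* at 65.0 and 51.0 TPM. *Fdft1* in KO was at 68.0, 67.3 and 65.3 TPM, and without WT day 0 replicate 1 its log2 difference was 0.38 (limma adjusted p = 0.00516), and without replicate 2 it was 0.04 (adjusted p = 0.704), each from a single WT library that is assumed to vary like the other groups. The small difference of *Sqle* at day 0 changed sign in the same way, from 0.20 without replicate 1 to −0.16 without replicate 2.

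At day 1 *Cyp51* was 1 of 7 to pass upward in KO, against 3.74% of all genes, and the other 6 had log2 differences of −0.09 to 0.09. *Sqle* also lay apart, at 45.8, 45.7 and 42.1 TPM in WT and 48.7, 47.7 and 46.1 TPM in KO, as 9.41% of all genes did upward. *Hmgcs1* lay apart downward, as 30.4% of all genes did, at 97.2, 95.1 and 100.2 TPM in WT and 91.2, 91.5 and 92.4 TPM in KO, with a log2 difference of −0.09 (limma adjusted p = 0.384). Over all genes the median difference at day 1 was −0.13. When each library was scaled to the same median, 6 of the 7 lay apart upward and the difference of *Hmgcs1* changed sign to 0.13 (adjusted p = 0.355), so the direction of the day 1 difference of *Hmgcs1* rests on the scaling, as did those of *Lss* and *Dhcr7*.

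Over the first day of RA *Insig1*, *Cyp51*, *Sqle* and *Lss* fell in each genotype. In WT 4 of 7 passed downward, against 12.5% of all genes, and the median of the 7 was −0.47 beside 0.17 over all genes. In KO 4 of 7 passed downward, against 11.7%, and the median was −0.43 beside 0.02. The day 1 and day 0 libraries of the genotypes are separate, so these are separate measurements of each response.

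*Insig1* fell most. In WT it went from 50.6 and 41.0 TPM at day 0 to 29.9, 23.1 and 25.8 TPM at day 1, with every day 1 library below both day 0 libraries. The log2 difference was −0.78 (SE 0.11, limma adjusted p = 7.73e-05). In KO it went from 56.9, 49.8 and 48.4 TPM to 28.3, 27.7 and 23.9 TPM, a log2 difference of −0.93 (SE 0.10, adjusted p = 6.81e-06). At day 1 the means of *Insig1* in WT and KO were 26.3 ± 3.44 (SD, n = 3) and 26.6 ± 2.36 TPM (SD, n = 3), and the groups overlapped.

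*Cyp51* fell by 0.55 on the log2 scale in WT (limma adjusted p = 3.58e-04) and by 0.43 in KO (adjusted p = 0.0016). *Sqle* fell by 0.50 in WT (adjusted p = 0.0017) and by 0.43 in KO, where it went from 71.6, 63.1 and 58.5 TPM to the day 1 values given above. *Lss* went from 17.8 and 21.7 TPM to 14.9, 13.0 and 14.0 TPM in WT, a log2 difference of −0.47 (adjusted p = 0.00644). In KO it went from 25.2, 19.7 and 21.9 TPM to 13.2, 13.6 and 13.3 TPM, a log2 difference of −0.69 (adjusted p = 1.94e-04), and no day 1 library reached a day 0 library. The WT calls of *Sqle* and *Lss* were not made when the 5 WT libraries of these days were fitted alone, with adjusted p of 0.0603 and 0.0661, and without WT day 0 replicate 2 *Lss* was at −0.33 and did not pass (adjusted p = 0.0734).

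*Fdft1*, *Dhcr7* and *Hmgcs1* did not pass downward over the first day in either genotype. *Fdft1* at day 1 was at 57.6, 54.8 and 54.6 TPM in WT, between the pair of day 0 values, with a log2 difference of −0.05 (95% interval −0.22 to 0.12). In KO it was at 60.7, 55.2 and 59.7 TPM, below all 3 day 0 libraries, with a log2 difference of −0.19 (limma adjusted p = 0.0607). *Dhcr7* was at 30.5, 28.0 and 27.1 TPM in WT and 29.7, 27.4 and 28.1 TPM in KO, with log2 differences of 0.08 and −0.19 that did not pass. *Hmgcs1* in WT was at 83.3 and 87.9 TPM at day 0 and higher in each day 1 library. Its log2 difference of 0.19 passed narrowly (adjusted p = 0.044), as 25.5% of all genes did upward, lost the call in most of the fits that left out a library and was 0.00 with equal medians. In KO *Hmgcs1* was at 96.5, 97.9 and 93.7 TPM at day 0, and the log2 difference to day 1 was −0.07 (95% interval −0.20 to 0.06).

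Between day 1 and day 3 most of the members that had fallen rose again. In WT 4 of 7 passed upward (*Sqle* 0.43, *Insig1* 0.37, *Cyp51* 0.36 and *Fdft1* 0.28 on the log2 scale), against 19.5% of all genes, and *Hmgcs1* fell by 0.24 (limma adjusted p = 0.00486), as 24.3% of genes did. In KO 5 of 7 passed upward (*Sqle* 0.76, *Hmgcs1* 0.65, *Cyp51* 0.51, *Insig1* 0.48 and *Fdft1* 0.42), against 25.5% of all genes, and none passed downward. These steps use the same day 1 libraries as the first step, so a low day 1 value enters both. The median of the 7 was 0.28 in WT and 0.48 in KO, beside −0.07 and 0.04 over all genes. *Lss* did not return, and its log2 differences over this step were −0.20 in WT and 0.12 in KO, neither passing.

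**Figure D3:**
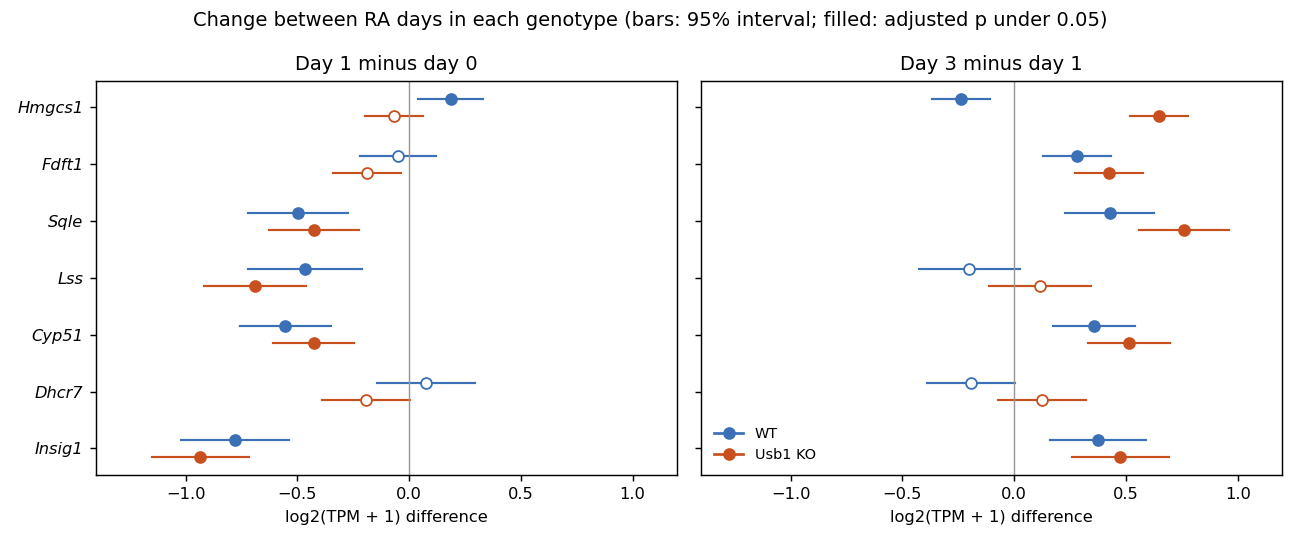
Change in log2(TPM + 1) from day 0 to day 1 (left) and from day 1 to day 3 (right) for the 7 genes in WT (blue) and KO (orange), with 95% intervals from limma; filled points had an adjusted p under 0.05. *Insig1*, *Cyp51*, *Sqle* and *Lss* lie below 0 at left in both genotypes, and *Hmgcs1* lies at −0.24 in WT and 0.65 in KO at right.

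Over the whole series the members took different courses. *Lss* and *Insig1* ended below their day 0 level in both genotypes. For *Lss* the log2 differences of day 3 from day 0 were −0.67 in WT and −0.58 in KO (limma adjusted p = 2.37e-04 and 3.19e-04), and for *Insig1* −0.41 and −0.46 (adjusted p = 0.00702 and 0.00133). Without WT day 0 replicate 1 the WT value of *Insig1* was −0.26 and did not pass (adjusted p = 0.122). Over this span 22.5% of all genes passed downward in WT and 21.8% in KO, while 26.2% lay apart downward in WT and 32.1% apart upward in KO, beside 3 members in each case. *Cyp51* and *Dhcr7* passed in neither genotype, with log2 differences between −0.20 and 0.08, but with libraries scaled to equal medians *Cyp51* passed downward in WT (−0.38, adjusted p = 0.00805) and *Dhcr7* in both (−0.30 and −0.35). *Fdft1* rose by 0.23 in both genotypes, as 29.6% of genes in WT and 29.7% in KO did, but with equal medians its log2 difference was −0.05 in KO and 0.05 in WT, neither passing, and without WT day 0 replicate 2 the WT value was 0.06. *Hmgcs1* and *Sqle* rose in KO, by 0.58 and 0.33 (adjusted p = 1.17e-06 and 0.00758), and with equal medians *Sqle* did not pass (0.06). In WT their log2 differences were −0.05 and −0.07, with 95% intervals of −0.20 to 0.09 and −0.30 to 0.15.

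None of the 7 was called at 2-fold in any of the 12 comparisons, by limma or by voom. Between genotypes 3.05%, 2.22% and 1.29% of all genes were called at days 0, 1 and 3. From day 0 to 1, day 0 to 3 and day 1 to 3, 13.9%, 25.8% and 15.2% were called in WT and 6.95%, 21.9% and 15.3% in KO, and 0.860%, 2.42% and 2.25% for the difference of the genotypes.

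Only *Hmgcs1* among the 7 had an RA response that differed between genotypes by a direct test. From day 0 to day 3 its log2 change was 0.64 higher in KO than in WT (SE 0.09, limma adjusted p = 0.00125), and from day 1 to day 3 it was 0.89 higher (SE 0.09, adjusted p = 3.73e-05). Such upward differences were passed by 3.53% and 5.93% of all genes. Over every alternative fit the first value lay between 0.54 and 0.69 and the second between 0.69 and 0.94, and both passed in each. Of the other 6, *Sqle* came next from day 0 to day 3 (0.41, adjusted p = 0.103, 95% interval 0.11 to 0.71), with 0.22 (adjusted p = 0.397) without WT day 0 replicate 1 and 0.59 (adjusted p = 0.00957) without WT day 0 replicate 2. From day 1 to day 3 *Sqle* (0.33), *Dhcr7* (0.32) and *Lss* (0.32) had adjusted p of 0.155, 0.17 and 0.244. From day 0 to day 1 none passed by limma, where 2.23% of all genes did in either direction, 1 had an unadjusted p under 0.05, and none passed by voom. *Cyp51* and *Insig1* had interaction values of 0.15 and 0.10 from day 1 to day 3, which did not pass.

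The rest of the pathway was read from a list of 58 genes in 7 groups, of which all passed the filter on low values. At day 3, 12 of the 58 were higher and 1 lower in KO by the test, against 3.96% and 3.56% of all genes. Among the 7 other mevalonate steps 4 were higher in KO, against 3.96% of all genes, and none lower, with a median log2 difference of 0.36. *Idi1*, the isomerase of isopentenyl diphosphate, was at 14.2, 17.1 and 17.6 TPM in WT and 27.1, 30.3 and 40.2 TPM in KO, a log2 difference of 0.94 (SE 0.11, limma adjusted p = 1.48e-04). *Mvk* (mevalonate kinase, 0.40), *Mvd* (the decarboxylase, 0.36) and *Acat2* (acetoacetyl-CoA synthesis, 0.28) also passed. *Fdps*, the synthase that feeds *Fdft1*, had a low deposited level of 1.34 to 3.61 TPM, on 27 to 70 recovered reads, with a log2 difference of 0.06. The cause of that low level was not tested.

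Of the 8 other sterol ring steps 1 was higher in KO at day 3, against 3.96% of all genes, and none lower, and the median was 0.18. This was *Msmo1*, the methylsterol oxidase that acts after *Cyp51*, at 30.6, 34.8 and 28.8 TPM in WT and 54.5, 56.2 and 60.8 TPM in KO (0.85, SE 0.10, limma adjusted p = 1.57e-04). *Msmo1* was higher in KO at day 0 (0.48, adjusted p = 0.0184) and day 1 (0.77, adjusted p = 2.11e-04) as well. *Nsdhl* (0.30) and *Sc5d* (0.23) did not pass. The plot of enzymes in pathway order shows that 18 of the 19 enzymes it shows had a higher mean in KO at day 3, the exception being *Pmvk*, and that 8 passed.

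**Figure D4:**
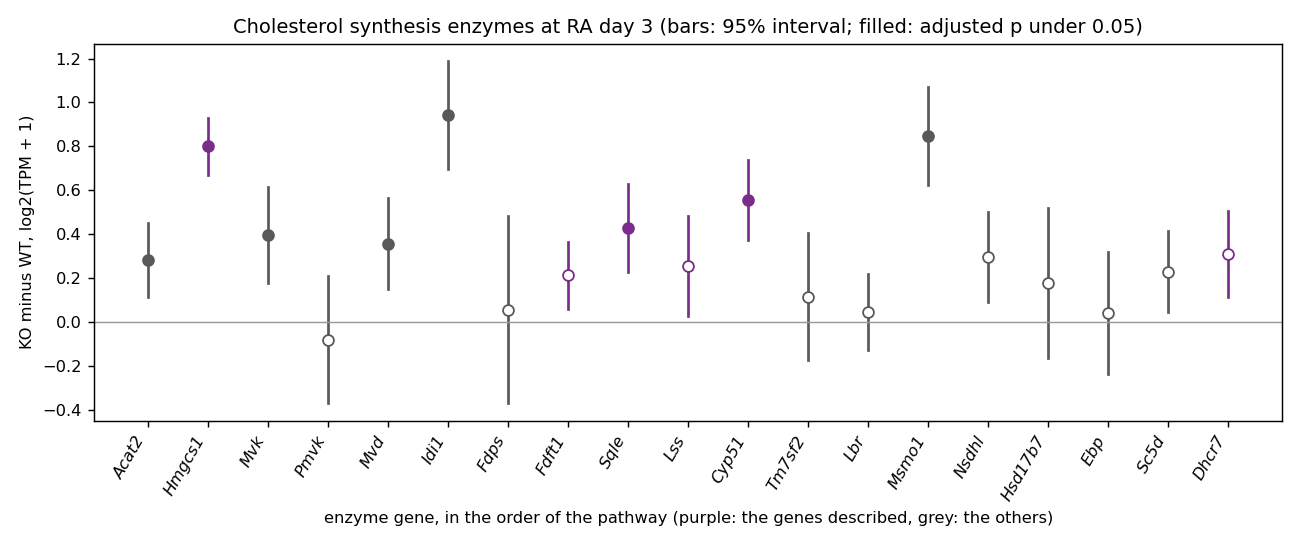
Difference of KO from WT at RA day 3 in log2(TPM + 1) for 19 cholesterol synthesis enzymes in the order of their steps, with 95% intervals from limma; purple marks 6 of the 7 genes described and grey the other enzymes, and filled points had an adjusted p under 0.05. *Idi1*, *Msmo1* and *Hmgcs1* lie highest, at 0.94, 0.85 and 0.80.

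Of the 9 other genes of sterol sensing, 1 was higher in KO at day 3, against 3.96% of all genes. This was *Insig2*, the second retention protein, at 38.3, 36.6 and 38.7 TPM in WT and 53.1, 53.4 and 60.5 TPM in KO (0.54, limma adjusted p = 0.0077). It was higher in KO at day 0 too (0.70, adjusted p = 0.003). *Srebf2*, which encodes SREBP2, was at 157.2, 148.9 and 169.3 TPM in WT and 175.3, 200.2 and 170.1 TPM in KO at day 3, where the log2 difference of 0.20 did not pass (adjusted p = 0.362). At day 1 *Srebf2* was lower in KO (−0.35, limma adjusted p = 0.0357). Over all genes the median difference at that day was −0.13, which equal medians moved to 0.08, and 30.4% of all genes lay apart downward. Upward, 9.41% of all genes lay apart at day 1. Of the 9 genes of sterol sensing 5 lay apart downward and 1 upward, and of all 58 listed genes 20 downward and 10 upward. *Scap*, the escort, differed by 0.02 at day 3. With RA, *Insig2* rose by 1.05 in WT and 0.57 in KO over the first day while *Insig1* fell. The WT day 0 pair of *Insig2* was wide, at 17.8 TPM in replicate 1 and 27.2 TPM in replicate 2. It enters both the WT rise and the day 0 difference of 0.70.

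The 7 members varied together only in part. Across the 17 libraries the Pearson correlation of log2(TPM + 1) between pairs ran from −0.04 (*Fdft1* and *Lss*) to 0.87 (*Sqle* and *Fdft1*), as a description over libraries that share genotype and day. *Cyp51* and *Sqle* had 0.85, and *Hmgcs1* had 0.03 with *Lss* and 0.05 with *Insig1*. Ranked by correlation with the mean of the 7 genes over the 17 libraries, the nearest of 3995 other genes (mean of at least 10 TPM and a range of at least 1 on the log2 scale) were *Sdc1* (0.91), *Gng2* (0.86), *Sulf1* (0.83), *Pdgfc* (0.83) and *Mb21d2* (0.78). The most opposite were *Rab29* (−0.91), *Dpp4* (−0.85) and *Fam131c* (−0.83).

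*Hmgcs1*, *Fdft1*, *Lss* and *Cyp51* share exon bases with a gene on the opposite strand, and whether the reads were counted by strand is not given in the sources used here. *Fdft1* shares 774 of its 4227 exon bases with *Ctsb*, a lysosomal protease gene whose mean went from 54.0 TPM at WT day 0 to 157 TPM at WT day 3 (61.4 to 146 TPM in KO), so the level of *Fdft1* is uncertain where that overlap was counted. *Cyp51* shares 166 bases with *Akap9* (10.1 to 24.6 TPM). The partners of *Hmgcs1* and *Lss* reached at most 1.25 and 1.75 TPM in any library.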

How the data were processed

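RNA from 17 samples of R1 cells was sequenced, and the authors deposited TPM values per gene, made from gene length and the reads mapped to each gene. The submitters' processing notes list HISAT2 2.1.0, StringTie 1.3.6 and GRCm38.p6, and the authors used DESeq2 for their own comparisons. Values were taken as log2(TPM + 1) for 21871 genes with at least 1 TPM in at least 2 libraries. Means of 6 groups were fitted with limma 3.58.1 (limma-trend, R 4.3.3), with Benjamini-Hochberg adjustment over all genes in each comparison. "Passed" means an adjusted p under 0.05, and 2-fold calls also needed a 2-fold change. A fold on this scale understates changes of low genes. Whole reads were recovered from TPM steps for 95.9 to 96.7% of values within 0.01 of a whole number, and used for voom. The paper calls the replicates independent biological replicas. Neither it nor the labels say whether they were separate cultures, so p-values measure the spread between these samples. The members and gene lists were chosen with earlier results of these data known. Any gene of the lists could be named, and the genes most like the members were ranked by Pearson correlation. Only the limma fit was tested on simulated data, for KO against WT at day 3, with changes larger than those of the members there. Alternatives were another pseudocount (0.1), no filter, equal medians, quantile normalization, fits of the compared libraries alone, a replicate block, voom and leaving out each library. Counts of groups that do not overlap were added after seeing the data. Some genes of the lists enter the counts but are not reported here by name.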

Additional observations from a re-analysis of the deposited data

Results flagged for a closer look

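The RA response differed between KO and WT, by the limma test of the difference itself, for 1 of the 7 genes and for 12 of the 58 other genes of the pathway lists. This pools 3 spans, so no share of all genes stands beside it. From day 0 to day 1, 2 of the 58 passed, both downward. That count is near the share of all genes, where 2.23% passed in either direction. From day 0 to day 3, 4 passed upward, against 3.53% of all genes. From day 1 to day 3, 10 passed upward, against 5.93%. *Nr1h3* passed downward from day 0 to day 3 and *Me1* from day 1 to day 3. The shares of all genes passing downward over these spans are not reported here. Values are the log2 change in KO minus that in WT. Over all genes tested their median was −0.12 from day 0 to day 1 and 0.13 from day 1 to day 3. With equal medians these 2 medians were −0.02 and −0.07. *Hmgcs1* had 0.64 from day 0 to day 3 and 0.89 from day 1 to day 3. *Idi1*, the isomerase of the mevalonate branch, had 0.71 (SE 0.17, adjusted p = 0.0269) and 0.84 (SE 0.16, adjusted p = 0.00604) over these spans.

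Among genes of sterol sensing, *Rnf145*, a ubiquitin ligase, had 0.45 from day 0 to day 3 (adjusted p = 0.0480) and 0.45 from day 1 to day 3 (adjusted p = 0.0355), and *Srebf2* had 0.55 from day 1 to day 3 (adjusted p = 0.0411). *Nr1h3*, which encodes the oxysterol receptor LXRα, had −1.04 from day 0 to day 1 (adjusted p = 0.0374) and −1.38 from day 0 to day 3 (adjusted p = 0.00418). In the isoprenoid branch *Fntb*, a farnesyltransferase subunit, had 0.59 from day 0 to day 3 and 0.41 from day 1 to day 3, and *Dhdds* had 0.34 from day 1 to day 3.

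Among genes of fatty acid synthesis, *Elovl6* had 0.79 from day 0 to day 3 and 0.77 from day 1 to day 3. *Fads2* had −0.72 from day 0 to day 1 and 0.78 from day 1 to day 3, and both values use the same day 1 libraries. From day 1 to day 3 *Scd2* had 0.90, *Scd1* 0.55, *Acly* 0.30 and *Me1* −0.66. No group had 4 or more libraries, so single libraries were not tested for standing apart.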

How the results depend on the processing

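Of 2016 alternative values of the members' differences, 1898 kept their direction and their side of the threshold, 36 gained a call, 30 lost one and 52 changed sign. Of these 52, 51 were differences that passed neither before nor after, and the other was *Fdft1*, day 3 against day 0 in KO, at −0.046 with equal medians against 0.23. The cause was not tested where a call changed. For KO against WT at day 0 the number passing went from 0 to 2 with equal medians, 3 with quantile normalization and 3 by voom. In WT it went from 5 to 3 for day 1 against day 0 with the compared libraries alone, and from 3 to 5 for day 3 against day 0 with equal medians. The 2-fold count in KO from day 0 to day 1 went from 0 to 1 with equal medians (*Insig1*, −1.01). Without the 2-fold limit the counts were 1 and 3 for KO against WT at days 1 and 3. They were 5, 3 and 5 in WT and 4, 5 and 5 in KO for day 1 against 0, 3 against 0 and 3 against 1, and 1 for each genotype difference that ends at day 3. Members apart upward at day 1 went from 2 to 6 with equal medians and 4 with quantile normalization, those apart downward in WT from day 0 to day 3 from 3 to 5, and those apart upward in KO over that span from 3 to 1, both with equal medians. Equal medians moved the median of all genes at day 1 from −0.13 to 0.08.

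Leaving out each library gave 0 to 1 passing for KO against WT at day 0, 3 to 5 at day 3, 4 to 5 and 2 to 3 in WT for day 1 and day 3 against day 0, 4 to 5 in KO for day 1 against day 0, and 1 to 2 for the genotype difference from day 0 to day 3. The 5 at day 3 arose without WT day 0 replicate 2, where *Fdft1* and *Dhcr7* also passed, and the 1 at day 0 without WT day 0 replicate 1 (*Fdft1*) or WT day 1 replicate 3 (*Cyp51*). Without WT day 0 replicate 2 *Sqle* gave the second genotype difference (0.59), which was 0.22 without replicate 1, and without replicate 2 *Lss* lost its call for day 1 against day 0 in WT (−0.33), while 5 members were apart downward in WT from day 0 to day 3 (range 3 to 5). With a WT day 0 library left out the lone sample is assumed to vary like the other groups.

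Over all genes tested, deviations of same-numbered samples from their group means correlated at −0.130 to 0.124 over 40 pairs. The 80 pairs with unlike numbers ran from −0.124 to 0.106. Whether replicate numbers pair the samples for the members alone was not tested. With a replicate block, 1 member passed at day 0 (*Cyp51*, 0.32) in place of 0.

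Under other settings, differences that did not pass changed sign as follows. For KO against WT at day 1 the log2 difference of *Hmgcs1* was 0.13 with equal medians and 0.015 by voom. With equal medians, quantile normalization and voom, *Lss* was at 0.15, 0.14 and 0.037 and *Dhcr7* at 0.21, 0.15 and 0.094. *Dhcr7* in WT from day 0 to day 1 was at −0.11 with equal medians and −0.0061 with quantile normalization. In KO *Cyp51* was at −0.19 from day 0 to day 3 with equal medians. From day 1 to day 3 in KO, equal medians and quantile normalization gave −0.083 and −0.091 for *Lss* and −0.075 and −0.044 for *Dhcr7*. The genotype difference from day 0 to day 3 of *Fdft1* was −3.66e-05 with a pseudocount of 0.1, −0.091 with equal medians, −0.038 with quantile normalization, −0.0041 with a replicate block and −0.059 by voom. That of *Lss* was −0.0014 with equal medians, and that of *Dhcr7* −0.043 with equal medians and −0.0097 by voom. From day 1 to day 3 it was −0.053 for *Fdft1*, −0.042 for *Cyp51* and −0.096 for *Insig1* with equal medians, and −0.058 for *Insig1* with quantile normalization.

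Leaving out single libraries changed the sign of further differences. For KO against WT *Sqle* ran from −0.16 to 0.20 at day 0, and at day 1 *Dhcr7* ran from −0.042 to 0.040 and *Insig1* from −0.066 to 0.11. In WT *Fdft1* ran from −0.22 to 0.12 from day 0 to day 1 and *Sqle* from −0.25 to 0.11 from day 0 to day 3, and in KO *Dhcr7* ran from −0.13 to 0.022 over the latter span. The genotype difference from day 0 to day 1 ran from −0.11 to 0.25 for *Sqle* and from −0.31 to 0.030 for *Fdft1*. From day 0 to day 3 it ran from −0.17 to 0.17 for *Fdft1*, −0.048 to 0.23 for *Lss*, −0.016 to 0.14 for *Dhcr7* and −0.20 to 0.095 for *Insig1*.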

Other observations

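Some genes of cholesterol uptake and handling changed at least 2-fold with RA. Of the 8 genes of uptake and transport, 4 were called upward and none downward from day 1 to day 3 in each genotype. Over that step 15.2% of all genes in WT and 15.3% in KO were called in either direction. *Lipa*, the lysosomal lipase, rose by 2.17 on the log2 scale in WT and 1.80 in KO from day 1 to day 3, and *Soat1*, which esterifies cholesterol, by 1.42 and 1.86. *Abca1*, a cholesterol exporter, fell by 1.68 and 2.03 over the first day. In its list, oxysterol response and efflux, 2 of 8 genes were called higher over that day in each genotype. Called lower were 2 in WT and 1 in KO. Of all genes, 13.9% in WT and 6.95% in KO were called in either direction. Of 8 genes of uptake and transport, 1 was higher in KO at day 3 (*Scarb1*, 0.37), against 3.96% of all genes. Of 8 genes of oxysterol response and efflux, 1 was lower, against 3.56% of all genes (*Nr1h2*, −0.38, with 1 pseudogene of it listed). Of 8 genes of the isoprenoid branch none passed by limma and none had an unadjusted p under 0.05.

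Of 10 genes of fatty acid synthesis 5 were higher in KO at day 3, against 3.96% of all genes, and none was lower, with a median log2 difference of 0.32. *Scd1*, which makes monounsaturated fatty acids, was at 24.7, 25.3 and 26.8 TPM in WT and 44.2, 58.5 and 56.1 TPM in KO (1.01, limma adjusted p = 4.00e-05). *Scd2* (0.68), *Elovl6* (0.42), *Fads2* (0.40) and *Acly* (0.24) also passed.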
